A study of Mus musculus with 4 samples.

Results

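Integrins are cell surface receptors made of an alpha and a beta chain, and the linkers described with them join the beta chain's tail to the actin cytoskeleton. The set comprised 33 genes chosen by symbol: 26 integrin subunits and 7 linkers, out of 21883 features in each deposited table. All 33 symbols were found in both tables. Of these genes, 26 reached 1 FPKM (a read density that takes account of transcript length and library size, so that genes of different length can be compared) in at least 1 DRG library and 21 in at least 1 cord library. A gene is called measured in a tissue where it met that level.

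RNA was sequenced from wild-type male young adult mice of the strain labelled BL6/C57, 7 days after the sciatic and femoral nerves of the left side were transected. The 4 groups, each of 1 library, were dorsal root ganglia L4-6 (DRG, the ganglia of the sensory neurons) of the cut (ipsilateral) side and of the other (contralateral) side, and the lumbar dorsal cord of each side. The contralateral tissue came from operated mice, so no group comes from uninjured animals, and the labels do not say whether animals were pooled. Replicates are lacking, so the differences below are between libraries and were not tested. The libraries' summed FPKM lay between 425636 and 442298, and the read depth is unknown. Markers fitted the labelled tissues: the 8 sensory neuron genes summed to 2293 FPKM (contralateral) and 1754 FPKM (ipsilateral) in DRG, and to 11.9 and 20.2 FPKM in cord.

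In the nervous system, integrins anchor glia and neurons to laminin, collagen and fibronectin, and carry immune cells to their targets. Talin and kindlin bind the beta tail and switch the receptor to its active form. Vinculin, paxillin and integrin-linked kinase then join the growing contact, the focal adhesion. The alpha chain largely decides the ligand, and beta 1 is the partner of most alpha chains, whereas beta 2 is restricted to leukocytes, microglia included.

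The highest ratio belonged to Itga7 in DRG and to Itgb2 in cord, and Itgam ranked second in both. In DRG, 1 of 26 measured members, the laminin receptor subunit gene Itga7, was at least 2-fold higher on the cut side by log2 of (FPKM + 1). In dorsal cord 2 of 21 were, Itgam and Itgb2, which encode the chains of complement receptor CR3. No measured member was 2-fold lower in either tissue. Over all measured features, 3.04% were 2-fold higher and 0.784% 2-fold lower in DRG, and 4.46% and 1.64% in cord. Counts of 1 and 2 genes are too small to set the members apart from that background. With a pseudocount of 0.1 in place of 1, 3 members were 2-fold higher in DRG, beside 5.17% of all features, and 4 in cord, beside 7.22%. By a 1.5-fold rule 5 members were higher in DRG, beside 8.56% of all features, and 1 (Tln2) was lower, beside 4.96%. In cord 7 were 1.5-fold higher, beside 12.7%, and 0 lower, beside 8.32%. The authors' deposited table calls 3 of the 26 higher in DRG (Itga7, Itgam and Itgb4), where it calls 4.65% of all measured features higher, and 0 lower, beside 1.97%. In cord the authors' deposited table calls 5 of the 21 higher (Itgam, Itgb2, Itgb3, Itgb5 and Tln1), beside 4.64% of all, and 0 lower, beside 1.58%. These calls compare 1 library with 1 library and do not include variation between animals. The median log2 ratio over measured members was 0.27 in DRG and 0.31 in cord, beside 0.05 and 0.02 over all measured features. In DRG 18 of 26 members lay above 0, where 56.1% of all measured features did, and in cord 18 of 21, where 51.6% did.

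**Figure D1:**
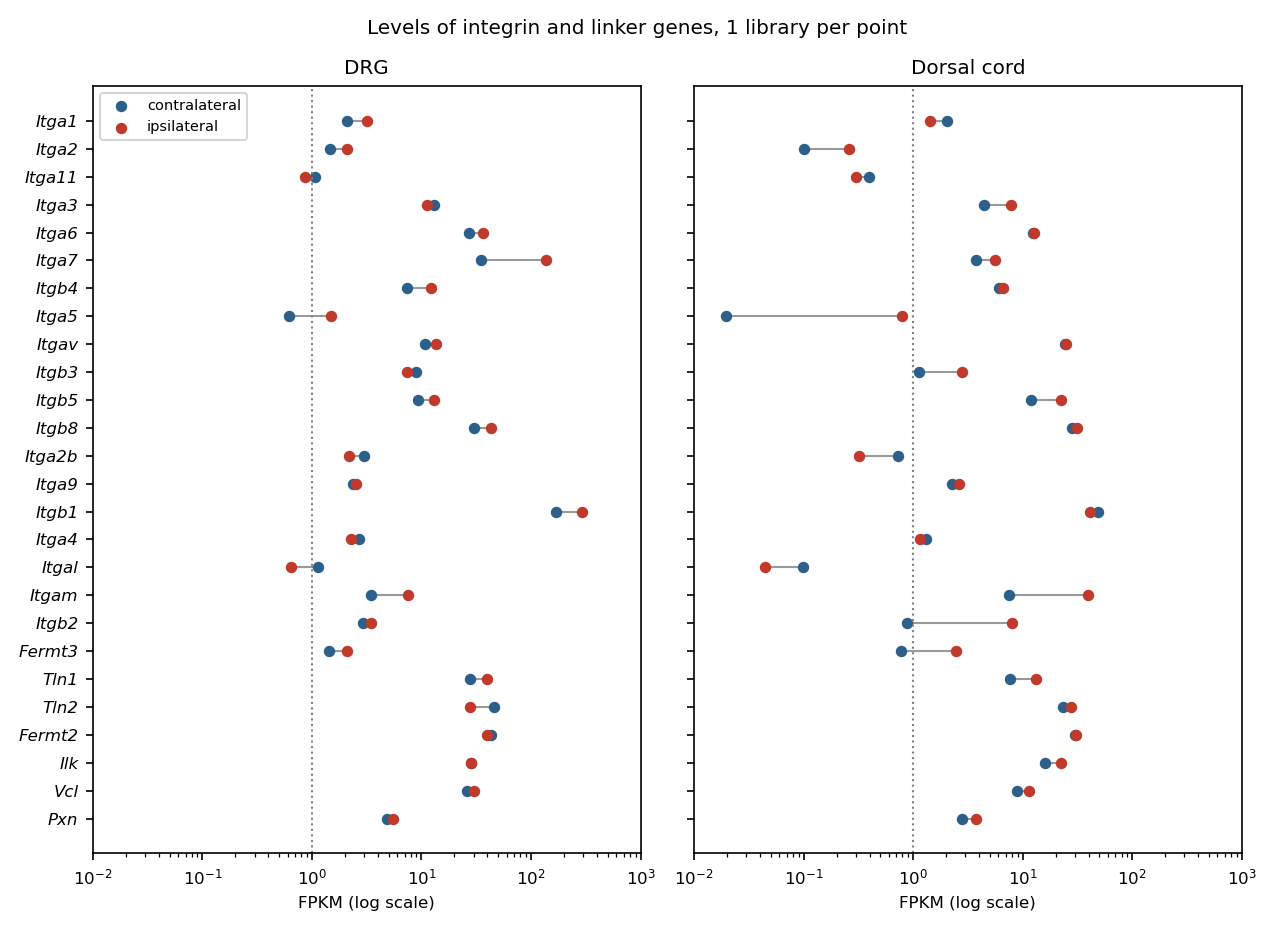
Level of each member that was measured in at least 1 tissue, in FPKM on a log axis, for the contralateral (blue) and ipsilateral (red) library of DRG and dorsal cord, with the dotted line at 1 FPKM. Itgb1 lies farthest right in all 4 libraries, and the longest distances among measured members are those of Itga7 in DRG and of Itgam and Itgb2 in cord.

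The promoters of some members whose level was higher in cord (Itgam, Fermt3, Tln1, Itgb5, but not Itga3), and of Itgb1, are shown. The genes shown take part in the side differences described below. Each promoter is the 250 bases before the RefSeq transcription start on build GRCm38.p6, read on the gene's own strand. Capitals mark GAGGAA on either strand (TTCCTC on the other), a form of the sequences recognised by ETS factors, among them the myeloid factor PU.1. Other forms were not searched for, so a window without capitals may still hold an ETS sequence. The windows are chr7:128062390-128062639 (plus strand) for Itgam, chr19:7019470-7019719 (minus) for Fermt3, chr4:43562584-43562833 (minus) for Tln1, chr16:33829415-33829664 (plus) for Itgb5 and chr8:128685404-128685653 (plus) for Itgb1.
Itgam: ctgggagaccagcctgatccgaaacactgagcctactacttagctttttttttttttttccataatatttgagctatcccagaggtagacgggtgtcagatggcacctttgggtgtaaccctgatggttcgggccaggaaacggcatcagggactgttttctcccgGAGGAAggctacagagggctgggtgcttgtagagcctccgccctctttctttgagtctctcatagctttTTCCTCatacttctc
Fermt3: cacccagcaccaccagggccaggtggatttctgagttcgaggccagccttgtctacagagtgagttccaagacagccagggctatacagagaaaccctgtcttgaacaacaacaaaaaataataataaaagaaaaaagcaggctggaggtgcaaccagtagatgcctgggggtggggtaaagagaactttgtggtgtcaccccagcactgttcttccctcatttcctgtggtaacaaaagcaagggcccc
Tln1: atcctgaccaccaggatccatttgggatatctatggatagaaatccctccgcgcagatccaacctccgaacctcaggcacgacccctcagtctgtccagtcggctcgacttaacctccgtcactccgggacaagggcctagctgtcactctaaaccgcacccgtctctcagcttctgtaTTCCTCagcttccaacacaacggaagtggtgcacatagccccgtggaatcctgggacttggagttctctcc
Itgb5: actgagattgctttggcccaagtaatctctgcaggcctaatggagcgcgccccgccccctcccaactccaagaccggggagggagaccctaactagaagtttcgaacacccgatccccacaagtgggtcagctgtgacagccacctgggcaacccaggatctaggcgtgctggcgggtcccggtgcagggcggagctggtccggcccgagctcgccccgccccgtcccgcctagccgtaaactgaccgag
Itgb1: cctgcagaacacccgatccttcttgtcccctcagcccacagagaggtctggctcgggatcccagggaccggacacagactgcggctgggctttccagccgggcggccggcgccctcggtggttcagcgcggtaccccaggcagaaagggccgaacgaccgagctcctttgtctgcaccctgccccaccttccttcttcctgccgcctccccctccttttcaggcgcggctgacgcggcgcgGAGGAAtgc
GAGGAA occurred at 2 places in the Itgam window, whose first bases lie 84 and 15 bases before the start, at 1 place in Tln1 (71 bases before) and in Itgb1 (9 bases before), and at 0 in Fermt3 and Itgb5. It was present in 9 of 26 promoters of the 23 members matched by symbol (34.6%) and in 23.3% of all 32851 promoters of this length. The AP-1 element TGANTCA, read on both strands, was in 1 member promoter, that of Itgax, and in 6.75% of all. The GC box GGGCGG was in 10 (38.5%) and in 32.7% of all. These are letter matches only, and matches to different motifs overlapped at 0 places in the member promoters. Members without an entry were Itga6, Itga7, Itgad, Itgae, Itgal, Itgb2, Itgb3, Itgb4, Tln2 and Pxn.

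Laminin receptors showed the highest DRG ratio of the set. Itga7 pairs with beta 1 to bind laminin and is known in muscle and in sensory neurons with growing axons. It was at 34.8 FPKM in contralateral and 136 FPKM in ipsilateral DRG, a log2 ratio of 1.94, which ranks 78th among the 13137 measured features. The plain fold was 3.92, and its 95% interval, taken here and below from the test statistic in the authors' deposited table, ran from 2.74 to 5.60 (q = 2.25e-11 in that table). In the files Itga7 spans mm9 chromosome 10 from 128370868 to 128398044, a span shared with Mettl7b, which was listed at 0 in both DRG libraries. In cord the same gene was much lower, at 3.78 FPKM contralaterally and 5.60 ipsilaterally (log2 ratio 0.46). Its interval computed from the authors' deposited test statistic, 0.90 to 2.43, includes 1. The DRG and cord intervals do not overlap, but the difference between tissues was not tested.

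The other laminin receptor genes were closer between sides. Itga6, whose product pairs with beta 1 or beta 4, was at 26.9 FPKM contralaterally and 36.6 ipsilaterally in DRG (log2 ratio 0.43). In cord Itga6 was nearly level, at 12.5 and 12.6 FPKM (0.02). Itgb4, the hemidesmosome chain that Schwann cells also carry, was at 7.37 FPKM contralaterally and 12.2 ipsilaterally in DRG (0.65). The authors' deposited table calls Itgb4 higher in DRG (q = 0.0126, fold interval 1.25 to 2.19). In cord Itgb4 was at 6.04 and 6.62 FPKM (0.11). Its deposited span is shared with Galk1, which was at 2.76 FPKM contralaterally and 3.04 ipsilaterally in DRG. Itga3, a laminin receptor chain of epithelia, had ratios of opposite sign, at 13.1 FPKM contralaterally and 11.2 ipsilaterally in DRG (-0.21) and at 4.42 and 7.76 FPKM in cord (0.69). The Itga3 interval computed from the authors' deposited test statistic was 0.59 to 1.23 in DRG and 1.13 to 2.73 in cord, where the deposited q was 0.109. Thus, of the 4 laminin receptor genes, 3 were above 0 in DRG and 4 in cord, with medians of 0.54 and 0.29. Of all measured features 56.1% were above 0 in DRG and 51.6% in cord, and 4 genes are too few to set apart from that.

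The shared beta 1 chain was the most abundant transcript of the set. Itgb1 stood at 171 FPKM in contralateral and 292 FPKM in ipsilateral DRG, a log2 ratio of 0.77. Its fold of 1.71 had an interval of 1.18 to 2.49, and the authors' deposited table does not call it (q = 0.0687). In cord Itgb1 was lower on the cut side, at 41.2 FPKM against 49.2 FPKM (-0.25), with an interval of 0.60 to 1.17 computed from the authors' deposited test statistic. The cord interval ends where that of DRG begins, and the difference between tissues was not tested. Itga9, the alpha chain for tenascin and other matrix ligands, differed little, at 2.39 FPKM contralaterally and 2.54 ipsilaterally in DRG (0.06) and at 2.25 and 2.64 FPKM in cord (0.16).

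**Figure D2:**
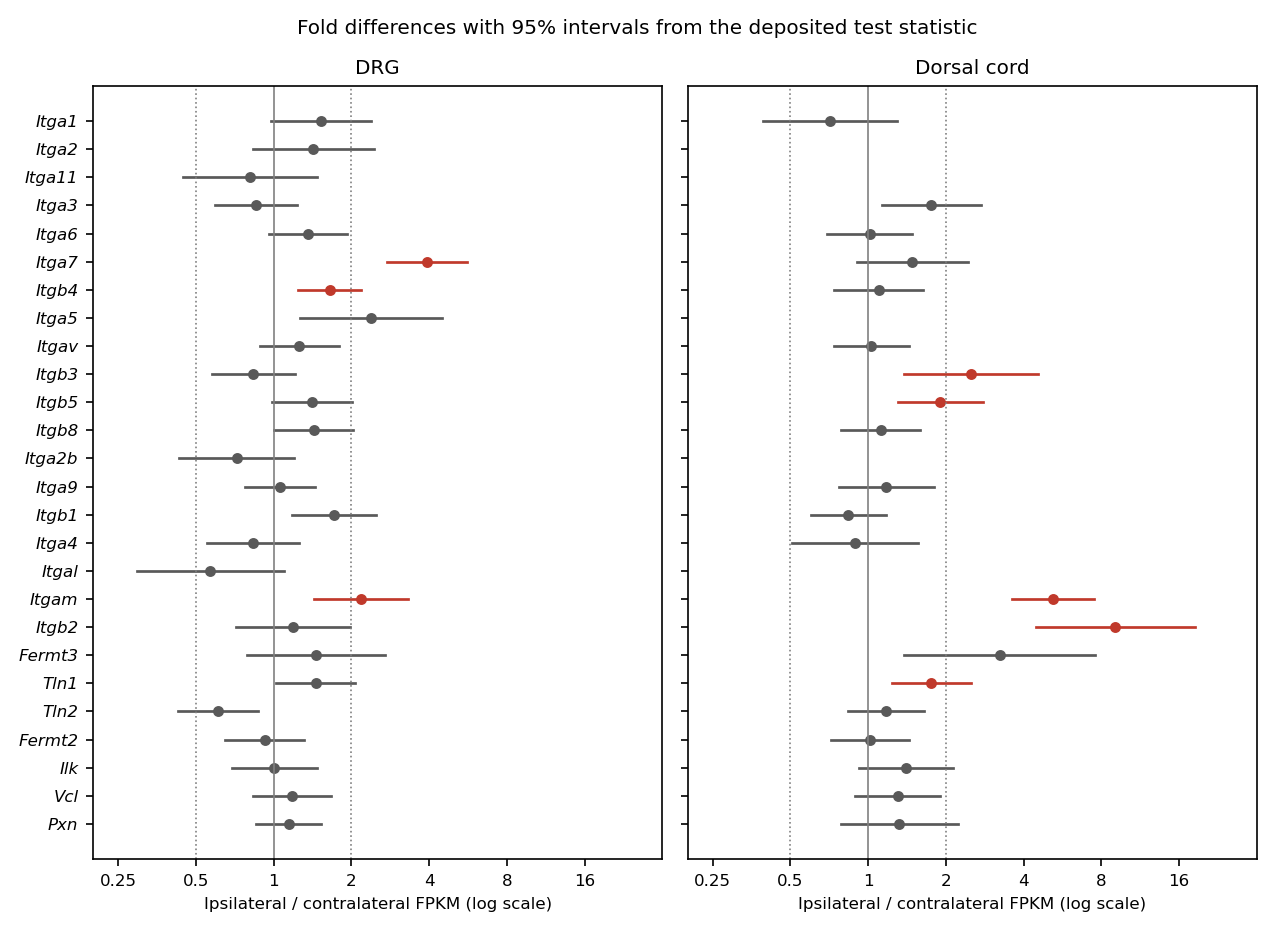
Ratio of ipsilateral to contralateral FPKM (log axis) for each measured member in DRG and dorsal cord, each with a 95% interval based on the test statistic of the authors' deposited table. Red marks the genes called there, 3 in DRG and 5 in cord, and the dotted lines mark 2-fold differences.

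The make-up of the integrin transcripts differed with side. Itga7 made up 33.3% of the summed alpha subunit FPKM in contralateral DRG and 61.5% in ipsilateral DRG. Itga6 came next, with 25.7% and 16.5%. The ratio of Itga7 to Itga6 was 1.29 contralaterally and 3.73 ipsilaterally. Among beta subunits Itgb1 made up 73.9% and 78.3% in DRG, followed by Itgb8 with 13.1% and 11.7%. The cord was composed differently on both sides. There Itgav led the alpha subunits contralaterally with 40.1%, and Itgam took 12.5% contralaterally and 39.7% ipsilaterally. Of the cord's beta subunits Itgb1 made up 50.5% contralaterally and 36.5% ipsilaterally. The shares of Itgb5, at 12.2% and 20.03%, and of Itgb2, at 0.91% and 7.10%, were larger ipsilaterally. Shares of a sum are not independent of each other, so a larger share of one gene makes the others smaller.

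**Figure D3:**
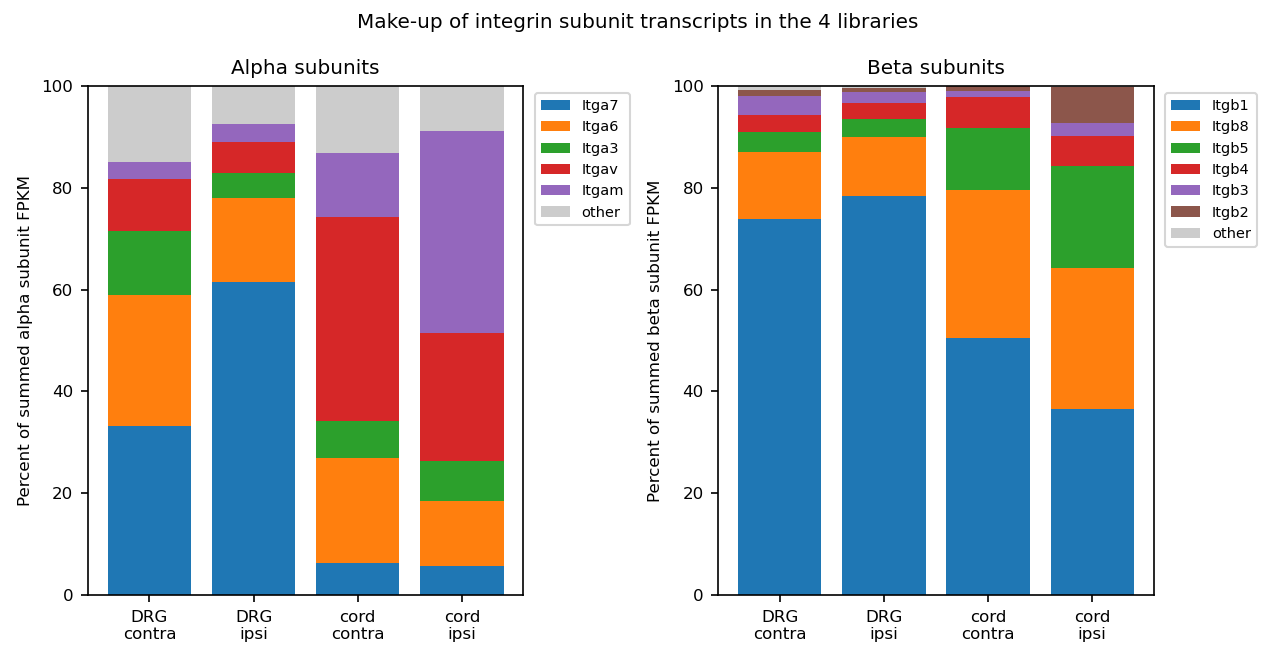
Percent of the summed FPKM of the 18 alpha subunit genes (left) and 8 beta subunit genes (right) that each named subunit makes up in the 4 libraries; grey holds the remaining genes. The Itga7 block is tallest in ipsilateral DRG (61.5%) and the Itgam block in ipsilateral cord (39.7%).

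In cord the leukocyte integrins had the highest ratios of the set. Itgam, the CD11b chain of CR3, was at 7.55 FPKM in contralateral and 39.2 FPKM in ipsilateral cord, a log2 ratio of 2.23 (rank 68 of 13351 measured features). Its partner Itgb2, the CD18 chain, was at 0.89 FPKM contralaterally and 8.02 FPKM ipsilaterally (2.26, rank 65). Both genes are thus near the top of the cord ratios. The folds of 5.19 for Itgam and 9.06 for Itgb2 had intervals of 3.61 to 7.48 and 4.46 to 18.4, and the authors' deposited table calls both (q = 0 as printed there for Itgam and 6.25e-07 for Itgb2). Fermt3, which encodes kindlin-3, the kindlin of blood cells and microglia, was at 0.77 FPKM contralaterally and 2.49 FPKM ipsilaterally (0.98, just under the 2-fold rule). The authors' deposited table does not call Fermt3 (q = 0.0801, fold interval 1.38 to 7.58). Its span on mm9 chromosome 19 is shared with Trpt1, which was at 14.8 FPKM contralaterally and 10.8 ipsilaterally in cord and at 6.39 and 4.07 FPKM in DRG. Itga4, which pairs with beta 1 or beta 7 on lymphocytes and monocytes, was at 1.31 FPKM contralaterally and 1.16 FPKM ipsilaterally (-0.09). In all, 4 of the 9 leukocyte genes (8 chains and Fermt3) were measured in cord. Of them 3 were above 0, beside 51.6% of all measured features, with a median of 1.61. Itgb2 and Fermt3 passed the 1 FPKM limit only through their ipsilateral values, so that median leans towards genes higher on that side. The genes under the limit had ratios of -0.07 (Itgal), -0.01 (Itgae), 0.17 (Itgax), 0.23 (Itgad) and 0.26 (Itgb7).

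In DRG the leukocyte genes had ratios on both sides of 0. Itgam was at 3.46 FPKM contralaterally and 7.54 FPKM ipsilaterally (0.94), a fold of 2.18 that the authors' deposited table calls (interval 1.43 to 3.32, q = 0.00827). Its partner Itgb2 was at 2.93 and 3.48 FPKM (0.19), with an interval of 0.72 to 1.98 computed from the authors' deposited test statistic. The Itgb2 intervals of DRG and cord do not overlap, and the difference was not tested. Fermt3 was at 1.42 FPKM contralaterally and 2.08 FPKM ipsilaterally (0.35). Itga4 was at 2.70 and 2.25 FPKM (-0.19). Itgal, the CD11a chain of the lymphocyte integrin LFA-1, was at 1.14 FPKM contralaterally and 0.65 FPKM ipsilaterally (-0.38). The ratio of Itgam to Itgb2 was 1.18 contralaterally and 2.16 ipsilaterally in DRG, and 8.53 and 4.89 in cord. So the alpha chain was the larger in all 4 libraries, by a margin that differed between tissues.

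Among markers of cells that carry these integrins, those of macrophages and microglia differed with side too. All 10 macrophage and microglia markers were measured and above 0 in both tissues, with a median log2 ratio of 1.25 in DRG and 1.99 in cord, and 0 markers were listed at 0. Their summed FPKM was 56.1 contralaterally and 156 ipsilaterally in DRG, and 73.8 and 379 in cord. The 4 with the highest ratios were Fcrls (2.45), Csf1r (1.92), Emr1 (1.63) and C1qa (1.56) in DRG, and Aif1 (3.28), Cd68 (3.22), C1qb (2.80) and C1qa (2.43) in cord. In DRG the Itgb2 ratio of 0.19 lies under the lowest of these markers, Ptprc at 0.61, and in cord its 2.26 lies within their range of 0.58 (Emr1) to 3.28 (Aif1). Neutrophil markers, whose cells also carry CR3, were present in DRG on both sides. Of 6 such genes 4 were measured in DRG, with a summed FPKM of 275 contralaterally and 262 ipsilaterally, led by S100a9 at 110.3 and 116 FPKM. In cord 0 of 6 were measured, with Camp, Elane and S100a9 listed at 0 on both sides. Of 7 T and B cell markers, 0 reached 1 FPKM in either tissue, and those listed at 0 included Cd8a in DRG and Cd3e and Ms4a1 in cord. The part of cell numbers in the integrin values was not tested, and in bulk tissue more cells of a type cannot be told from more RNA per cell.

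**Figure D4:**
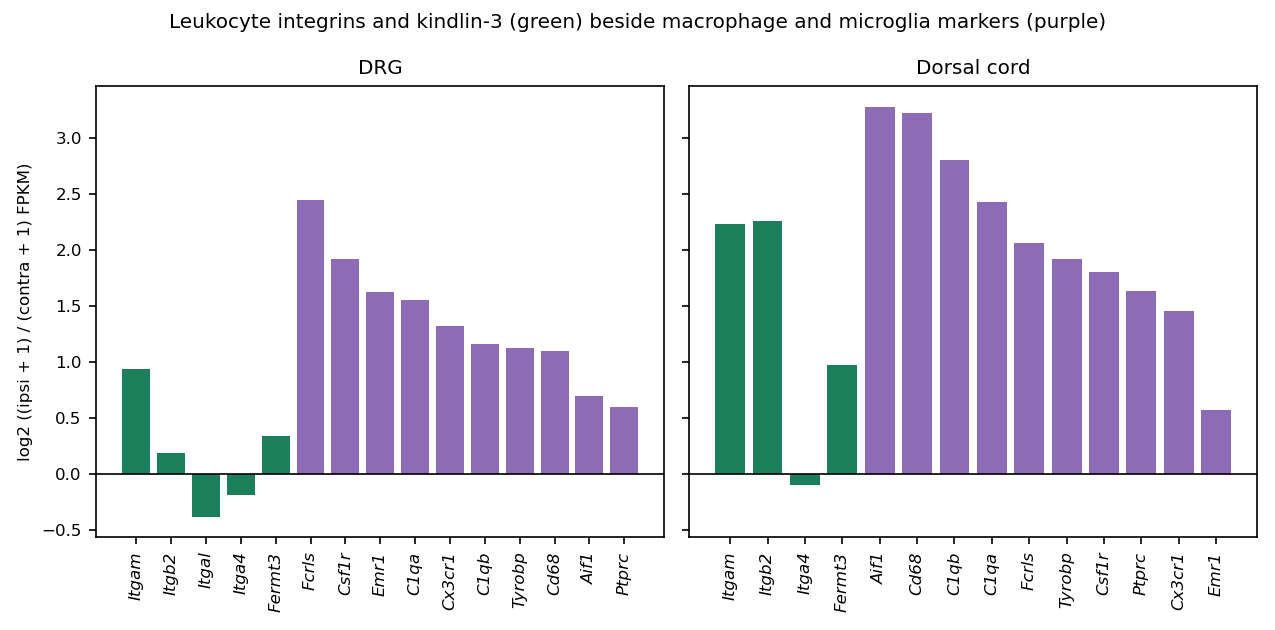
Log2 ratio of (FPKM + 1), ipsilateral over contralateral, for the measured leukocyte integrins and Fermt3 (green) and the 10 macrophage and microglia markers (purple), each bar 1 pair of libraries. In cord Itgam and Itgb2 lie among the markers, and in DRG every green bar except that of Itgam lies below every marker.

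The receptors for RGD-type matrix ligands, which bind fibronectin, vitronectin and latent TGF-beta, were led by Itgb8 and Itgav. Itgav, the common alpha v chain, was at 10.7 FPKM contralaterally and 13.5 ipsilaterally in DRG (0.31) and nearly level in cord at 24.2 and 24.9 FPKM (0.04). Itgb8, whose product activates latent TGF-beta, was at 30.4 and 43.5 FPKM in DRG (0.50) and at 28.2 and 31.4 FPKM in cord (0.15). Neither is called in the authors' deposited table. Itgb5, a vitronectin receptor chain found on phagocytes and glia, was at 11.9 FPKM contralaterally and 22.6 FPKM ipsilaterally in cord (0.87). The authors' deposited table calls Itgb5 in cord (fold 1.90, interval 1.3 to 2.78, q = 0.0242). In DRG Itgb5 was at 9.28 and 13.1 FPKM (0.46). Itgb3, another partner of alpha v and a platelet chain, was at 1.13 FPKM contralaterally and 2.82 FPKM ipsilaterally in cord (0.85). There the authors' deposited table calls Itgb3 (interval 1.38 to 4.54, q = 0.0446). In DRG Itgb3 went the other way, at 8.87 FPKM contralaterally and 7.40 ipsilaterally (-0.23). Itga5, the fibronectin receptor chain, was at 0.62 FPKM contralaterally and 1.49 FPKM ipsilaterally in DRG (0.62). Its fold of 2.39 had an interval of 1.27 to 4.50, and the authors' deposited table does not call it (q = 0.0872). In all, 4 of 5 measured RGD receptor genes were above 0 in DRG and 4 of 4 in cord, beside 56.1% and 51.6% of all measured features. These counts are too small to set the genes apart, and Itga5 passed the 1 FPKM limit in DRG only through its ipsilateral value.

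The platelet alpha chain Itga2b was measured in DRG only, at 3.0 FPKM contralaterally and 2.16 FPKM ipsilaterally (-0.34). Other platelet markers in DRG did not share 1 direction, with Gp9 at 2.76 and 0.72 FPKM (-1.13), Ppbp at 6.44 and 3.95 FPKM (-0.59) and Gp1bb at 1.31 and 3.16 FPKM (0.85). In cord Gp5 was at 0.47 FPKM contralaterally and 1.73 FPKM ipsilaterally (0.90), and Gp1bb at 1.05 and 0.66 FPKM (-0.30). There Pf4 and Ppbp were listed at 0 on both sides. The 6 platelet genes, Itga2b among them, had a summed FPKM of 24.7 contralaterally and 23.7 ipsilaterally in DRG. Their part in the Itga2b and Itgb3 values was not tested.

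Collagen receptor chains were present at low levels. Itga1 was at 2.10 FPKM contralaterally and 3.21 ipsilaterally in DRG (0.44) and at 2.02 and 1.44 FPKM in cord (-0.31). The Itga1 span is shared with Pelo, which was above Itga1 in all 4 libraries, at 4.85 and 5.02 FPKM in DRG and at 4.48 and 6.87 FPKM in cord. Itga2, another collagen-binding chain, was at 1.46 and 2.09 FPKM in DRG (0.33). Itga11, a chain of fibroblasts, was at 1.06 and 0.85 FPKM in DRG (-0.15), just inside the 1 FPKM limit, and Itgb6 in DRG, at 0.92 and 0.60 FPKM, was just outside it. In cord Itga4 was just inside, and Itga5, at 0.019 and 0.79 FPKM, just outside. The intervals computed from the authors' deposited test statistic include 1 for Itga1 in both tissues, and for Itga2 and Itga11 in DRG.

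In DRG the talins had log2 ratios of opposite sign. Tln1, the widely expressed talin, was at 27.5 FPKM contralaterally and 39.9 FPKM ipsilaterally in DRG (0.52) and at 7.62 and 13.4 FPKM in cord (0.74). The authors' deposited table calls Tln1 in cord (fold 1.75, interval 1.23 to 2.49, q = 0.0345) but not in DRG (q = 0.25). Tln2, the talin of heart and brain, was at 45.8 FPKM contralaterally and 27.8 FPKM ipsilaterally in DRG (-0.70), the lowest ratio of the measured members. Its fold of 0.61 had an interval of 0.43 to 0.87, and the authors' deposited table does not call it (q = 0.0783). In cord Tln2 was at 23.5 and 27.4 FPKM (0.22). The ratio of Tln2 to Tln1 was therefore 1.67 contralaterally and 0.70 ipsilaterally in DRG, and 3.08 and 2.05 in cord, so that Tln1 exceeded Tln2 in ipsilateral DRG alone among the 4 libraries. All 8 sensory neuron markers were below 0 in DRG, with a median of -0.43, among them Scn10a (-0.84), Calca (-0.68) and Isl1 (-0.47). Their part in the Tln2 value was not tested.

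The 4 remaining linkers lay within 0.23 of 0 in DRG, and Fermt2 lay near 0 in cord too. Fermt2, which encodes kindlin-2 of most tissues, was at 43.3 and 40.0 FPKM in DRG (-0.11) and at 30.0 and 30.5 FPKM in cord (0.02). Ilk, integrin-linked kinase, was at 28.2 and 28.5 FPKM in DRG (0.01) and at 16.1 and 22.4 FPKM in cord (0.46). The DRG values of both genes were thus close between sides. Vcl, vinculin, was at 25.8 and 30.3 FPKM in DRG (0.23) and at 8.84 and 11.5 FPKM in cord (0.35). Pxn, paxillin, was at 4.83 and 5.53 FPKM in DRG (0.16) and at 2.81 and 3.72 FPKM in cord (0.31). For these 4 genes the intervals computed from the authors' deposited test statistic include 1 in both tissues. Of the 7 linkers 5 were above 0 in DRG and 7 in cord, with medians of 0.16 and 0.35. Over all measured features 56.1% were above 0 in DRG and 51.6% in cord. The Ilk span on mm9 chromosome 7 is shared with Rrp8, at 7.42 FPKM contralaterally and 5.04 ipsilaterally in cord, and with Taf10, at 7.56 and 20.5 FPKM there, and no label says how reads of overlapping genes were divided.

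**Figure D5:**
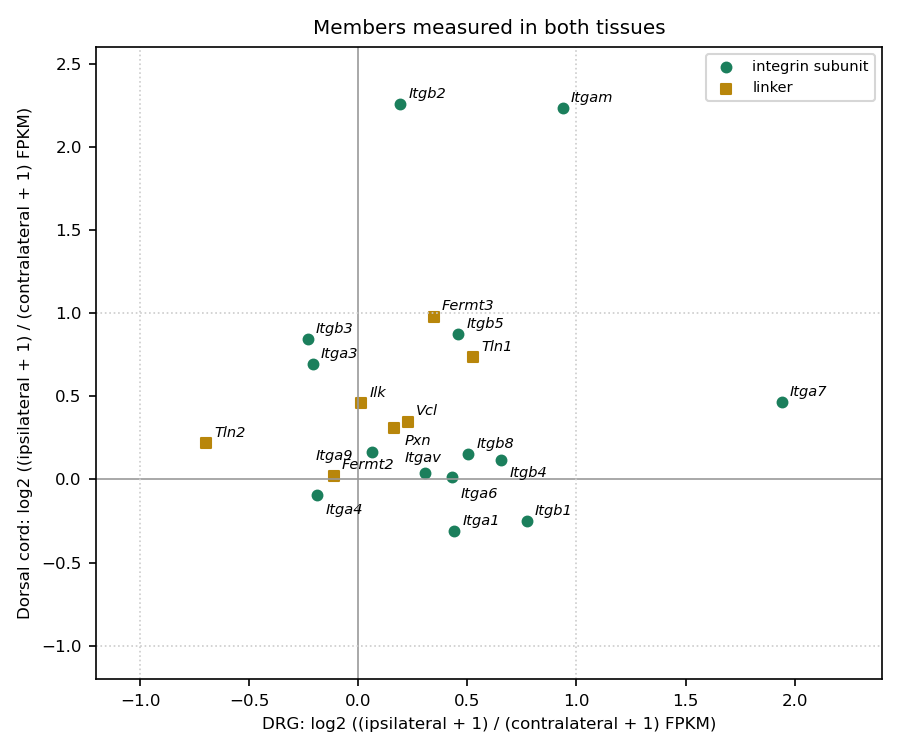
Log2 ratio of (FPKM + 1), ipsilateral over contralateral, in DRG (x axis) and dorsal cord (y axis) for the 21 members measured in both tissues, with dotted lines at 2-fold. Itga7 lies alone to the right, and Itgam and Itgb2 lie at the top. No member passes 2-fold in both tissues, but only 1 does in DRG and 2 do in cord, too few to read an overlap from.

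Across the 21 members measured in both tissues, 14 were above 0 in both, 1 (Itga4) was below 0 in both and 6 had opposite signs. Of all measured features, 56.1% were above 0 in DRG and 51.6% in cord. Their shares with the same or opposite signs were not computed, so these counts do not set the members apart. Itga1 and Itgb1 were above 0 in DRG and below in cord. Itga3, Itgb3, Tln2 and Fermt2 were the reverse. Of these 6, 0 had a ratio of 0.5 or more in size in both tissues with opposite signs. The 5 members measured in DRG alone were Itga2, Itga2b, Itga5, Itga11 and Itgal. The 7 measured in neither were Itga8, Itga10, Itgad, Itgae, Itgax, Itgb6 and Itgb7.

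Most measured ligand genes of these receptors had ratios above 0, on a list chosen with earlier results of these data known. Its counts therefore describe these libraries and are not independent support. Of the 35 ligand genes listed, 29 were measured in DRG and 25 of those were above 0, with a median log2 ratio of 0.40, beside 56.1% of all features and their median of 0.05. In cord 29 were measured and 25 were above 0, with a median of 0.27, beside 51.6% and 0.02. In DRG 1 was at least 2-fold higher, beside 3.04% of all features, and the authors' deposited table calls 8 higher and 0 lower, where it calls 4.65% and 1.97% of all features. Vtn, encoding vitronectin, was at 6.14 FPKM contralaterally and 17.7 FPKM ipsilaterally in DRG (1.39). Mfge8, an RGD protein that bridges phagocytes to dying cells, was at 4.0 and 8.83 FPKM (0.97), Fn1, fibronectin, at 7.80 and 15.5 FPKM (0.90), and Col3a1 at 21.7 and 41.1 FPKM (0.89). Fibroblast markers also differed in DRG, where 5 of 6 were above 0, led by Lum (16.8 and 44.1 FPKM) and Dcn (245 and 494 FPKM), and their summed FPKM was 321 contralaterally and 607 ipsilaterally, and their part in the ligand values was not tested.

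In cord 2 of the 29 ligand genes were at least 2-fold higher, beside 4.46% of all features. Tgfb1, whose latent form alpha v integrins bind, was at 0.34 FPKM contralaterally and 4.83 FPKM ipsilaterally (2.12), and Npnt, nephronectin, a ligand of alpha 8 beta 1, at 1.37 and 5.05 FPKM (1.35). Icam1, the partner of the beta 2 integrins, was at 0.56 FPKM contralaterally and 2.08 FPKM ipsilaterally (0.99). Tgfb1 and Icam1 passed the 1 FPKM limit only through their ipsilateral values. Edil3, an RGD protein, was lower at 75.3 and 39.5 FPKM (-0.91). The authors' deposited table calls 5 of the 29 measured ligand genes higher in cord and 1 lower, beside 4.64% and 1.58% of all measured features. The authors' deposited table also calls Cdh1, which did not reach 1 FPKM on either side in cord.

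Of 44 other focal adhesion genes 41 were measured in DRG and 42 in cord. This list was also chosen with earlier results of these data known. In DRG 25 were above 0, beside 56.1% of all features, and the median was 0.17, beside 0.05. In DRG 0 were 2-fold higher or lower, beside 3.04% and 0.784% of all features. Ptk2, focal adhesion kinase, was at 8.81 FPKM contralaterally and 14.6 FPKM ipsilaterally in DRG (0.67), and the authors' deposited table calls it. The adaptor Nck2 was at 2.70 and 5.54 FPKM (0.82), and Apbb1ip, which encodes the talin recruiter RIAM, at 1.05 and 2.32 FPKM (0.70). Rasgrp2, an activator of Rap1, was lower in DRG at 1.34 and 0.49 FPKM (-0.65). In cord 28 of 42 were above 0, beside 51.6% of all features, with a median of 0.19, beside 0.02. The 2 at least 2-fold higher, beside 4.46% of all, were Lyn, a Src kinase of myeloid cells, at 1.63 and 6.56 FPKM (1.52), and Parvg, the parvin of blood cells, at 0.53 and 3.32 FPKM (1.5). Parvg passed the 1 FPKM limit only through its ipsilateral value. Apbb1ip followed at 3.89 and 8.05 FPKM (0.89), and Cd47 was lower at 29.7 and 16.7 FPKM (-0.80).

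The remaining marker lists describe the tissues. In DRG Schwann cell markers had a median of 0.14 over 6 genes, endothelial markers 0.22 over 7 and fibroblast and pericyte markers 0.67 over 6. Satellite glia and astrocyte markers had -0.05 over 7 in DRG, and oligodendrocyte markers 0.21 over 3. In cord the medians were 0.43 over 3 Schwann cell markers, 0.09 over 7 endothelial, 0.11 over 5 fibroblast and pericyte, 0.11 over 7 astrocyte, -0.18 over 6 oligodendrocyte and -0.15 over 7 spinal neuron markers, and 0.69 over the 4 of 8 sensory neuron markers that were measured there. In cord the peripheral myelin gene Prx did not reach 1 FPKM. In DRG 5 of 7 spinal neuron markers did not, with Pax2 listed at 0 on both sides.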

How the data were processed

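The submitters' processing notes name TopHat (1.4.0), Cuffdiff (1.3.0) and the mouse build mm9. Annotation, strand setting and filters are not given in the sources used here. Per the labels' protocols, RNA was purified with the RNeasy kit and libraries were made with the ScriptSeq kit. The authors' deposited tables give FPKM per library, with p-values and q-values of a comparison of 1 library with 1 library per tissue. The 2 tables were normalised separately, so levels set across tissues are approximate. Where features overlap, the deposited span covers all of them.

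From the deposited FPKM, the log2 of (ipsilateral + 1) over (contralateral + 1) was computed with Python 3.11.15 and pandas 2.3.3. This understates differences of low genes. The limit for a measured gene was 1 FPKM in the higher library, and 2-fold means a log2 ratio of 1 or more in size. The standard error of a fold is the deposited log2 fold change divided by its test statistic. It covers the error in the authors' model, fitted without replicates, and not variation between animals. In DRG its median on the log2 scale was 0.40 for 9 members under a mean of 3 FPKM and 0.26 for 12 members from 10 FPKM. Depth is unknown. The ratio and the 2-fold rule were tested on simulated data, with changes well over 2-fold in features at 5 FPKM or more. That test does not cover lower genes or folds near 2. Every measured member is named, and up to 4 genes by size of ratio for the pathway lists and the marker lists set beside a result. Other marker lists are given by counts and medians, and further genes were chosen after their values were seen. Members and lists were chosen with earlier results of these data known. Alternatives were other pseudocounts, filters, scalings and call rules. Columns of per-sample values left out numbered 0. Some marker genes are not reported here.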

Additional observations from a re-analysis of the deposited data

How the results depend on the processing

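With 1 library per group, variation between animals cannot be measured and no library can be left out. No paired analysis was possible because each group has 1 library. At a pseudocount of 0.1 FPKM, 3 members were 2-fold higher in DRG (Itga7, Itgam and Itga5), beside 5.17% of all measured features. In cord 4 were (Itgam, Itgb2, Itgb3 and Fermt3), beside 7.22%. By the authors' call the counts were 3 and 5, beside 4.65% and 4.64% of all. By a 1.5-fold rule they were 5 and 7, beside 8.56% and 12.7%, with 1 member (Tln2) 1.5-fold lower in DRG, beside 4.96%. The median log2 ratio in DRG was 0.16 with no filter on low values and 0.37 at a filter of 5 FPKM, and in cord 0.19 with no filter. The filter alternatives keep different numbers of members, 33 without a filter and 16 in DRG at 5 FPKM. The other counts stayed within 1.5 times, and the other medians within 0.1, of the values reported. Of 188 member ratios recomputed with another pseudocount or scaling, 183 kept their sign, and the 5 that changed it were at most 0.02 in size. Depth limits members near 1 FPKM, such as Fermt3, most.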

Other observations

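The genes of 3 CD11 chains lie side by side on mm9 chromosome 7, with gaps of 11.1 kb between Itgam and Itgax and 23.3 kb between Itgax and Itgad. Their levels were far apart in ipsilateral cord, where Itgam was at 39.2 FPKM, Itgax (CD11c) at 0.16 FPKM and Itgad (CD11d) at 0.21 FPKM. The contralateral cord held Itgax at 0.032 FPKM and Itgad at 0.027 FPKM. In DRG Itgax was at 0.24 FPKM contralaterally and 0.60 FPKM ipsilaterally, under the 1 FPKM limit on both sides.

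Itga5 in cord was also under the limit, at 0.019 FPKM contralaterally and 0.79 FPKM ipsilaterally. The authors' deposited table calls it (q = 2.4e-04), with a fold interval of 8.88 to 184. How many reads the contralateral value rests on is unknown.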
